A study of Bos taurus with 9 samples.

Results

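The enzymes that build and break down glycogen were followed across 3 bovine tissues. The genes were chosen by name, as every probe set annotated with exactly 1 of 9 symbols: PYGM, PHKG1, PHKA1 and PHKB for breakdown, GYS1, GYG1, GBE1 and UGP2 for synthesis, and PGM1, which serves both directions. These genes and the lists used below were chosen with earlier results of these data known. Their shares set beside the background are therefore description only. Of these 9 genes 5 carried such a probe set, 6 probe sets in all among the 24016 tested: PYGM (Bt.16003.1.S1_at), GYG1 (Bt.7804.1.S1_at), GBE1 (Bt.6589.1.A1_at), UGP2 (Bt.3567.1.S1_at) and PGM1 (Bt.20281.2.S1_a_at and Bt.20281.3.S1_a_at). The other 4 genes, the phosphorylase kinase subunits PHKG1, PHKA1 and PHKB and the muscle glycogen synthase GYS1, were not analysed here. The label of the group is therefore met in part: the phosphorylase and most of the synthesis route are covered, and the muscle synthase and the muscle phosphorylase kinase are not.

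Glycogen is a branched glucose polymer, held in quantity by skeletal muscle as fuel for contraction and in small amounts by fat cells. Phosphoglucomutase (PGM1) turns glucose 6-phosphate into glucose 1-phosphate, UGP2 activates that to UDP-glucose, glycogenin (GYG1) primes the chain, glycogen synthase extends it and GBE1 adds the branches. Breakdown starts with glycogen phosphorylase, PYGM in muscle, which phosphorylase kinase switches on, and PGM1 returns its product to glycolysis.

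Total RNA of Yan yellow cattle, all of them bulls aged 24 months and reared alike, was hybridised to 9 single-colour Affymetrix bovine arrays. There were 3 arrays each of longissimus dorsi (a muscle along the spine), of abdominal fat and of subcutaneous fat. A herd of 9 bulls is named without tying samples to animals, and p-values therefore measure only the spread between these samples, which may be technical. Each piece of tissue is a mixture of cells.

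Values are log2 of the deposited intensity, and a level is given only against the same probe set on other arrays. The array median lay between 5.75 and 5.79 in muscle and between 5.87 and 5.92 in fat, 0.12 higher in fat on average, and a log2 value under 6 is treated as near background. The labelled tissues were checked on their markers. The summed intensity of 12 muscle fibre markers was 84755 to 96564 in muscle and 3824 to 7032 in fat, where 8 of the 12 had a mean under 6 in each depot, and that of 7 adipocyte markers was 3170 to 7163 in muscle and 33823 to 37915 in fat. Of the muscle fibre markers 10 fell in fat by their brightest probe set. For the other 2 the probe sets disagreed: CKM and MYH7 were higher in fat on the brightest (1.46 and 0.60), and lower on another that was brighter in muscle (-7.65 and -7.16). These 2 brightest probe sets are part of the sums and read 9.22 to 10.54 and 10.81 to 11.78 in fat. Much of the fat sum comes from them and is not read as muscle fibre signal. The ratio of the 3' to the 5' control probe set of glyceraldehyde-3-phosphate dehydrogenase, a sign of RNA integrity, was 0.94 to 1.01 in muscle and 1.21 to 1.74 in fat. Actin's ratio spanned 0.96 to 1.04 on the muscle arrays, but 2.24 to 5.69 (abdominal) and 3.86 to 8.17 (subcutaneous) on the fat arrays. Both ratios moved with the tissue contrast described next, and their part in any result was not tested.

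The first comparison set the glycogen enzymes of adipose tissue (the depots averaged with equal weight) against those of muscle. Of the 5 measured genes, counted by their brightest probe set, 4 fell in fat (PYGM, PGM1, GYG1 and UGP2), GBE1 did not pass, and none rose. The median difference was -0.84 on the log2 scale, against -0.02 over the brightest probe sets of all 9155 named genes. In the background 29.5% of those genes passed as lower and 61.4% in either direction (2926 genes higher) by the same test (limma, two-sided, Benjamini-Hochberg adjustment over all probe sets, threshold 0.05). In whole tissue, fewer cells that express a gene and less RNA per cell cannot be told apart.

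PYGM, the muscle form of glycogen phosphorylase, showed the widest gap of the 5 genes. Its log2 intensity in muscle was 11.97, 12.38 and 12.30. In abdominal fat it was 4.42, 4.18 and 3.77, and in subcutaneous fat 4.27, 3.76 and 3.96. All 3 muscle arrays were bright and all 6 fat arrays lay well below the near-background level, with no overlap. Of all named genes 25.8% were lower in fat without overlap. The difference between adipose tissue and muscle was -8.16 ± 0.18 (SE; 95% interval -8.55 to -7.76; limma adjusted p = 1.93e-09). Because the fat values sit near background, the size of this difference is not exact, and with a pseudocount of 16 it was -7.19. Among muscle fibre markers, TNNT3, a fast fibre troponin, likewise read 4.13 to 4.86 in fat, while skeletal actin, ACTA1, read 6.41 to 10.07 there.

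PGM1, the mutase shared by synthesis and breakdown, followed at a much smaller step. Its brighter probe set read 10.07, 10.90 and 9.98 in muscle, 8.50, 8.59 and 8.69 in abdominal fat and 8.59, 8.99 and 8.46 in subcutaneous fat. Muscle replicate 2 stood above the other muscle arrays, and every muscle array stood above every fat array. The difference was -1.68 ± 0.21 (SE; 95% interval -2.14 to -1.22; adjusted p = 9.09e-05), a 3.2-fold lower intensity in fat. The dimmer probe set gave 8.25, 9.24 and 8.27 in muscle against 6.43 to 7.12 in fat, with muscle replicate 2 again the highest. Its difference was -1.89 ± 0.24 (adjusted p = 0.0001), so the 2 probe sets moved in the same direction by similar amounts.

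The muscle array with the highest PGM1 was also the one with the least adipocyte, macrophage and fibroblast signal. The summed intensity of the 7 adipocyte markers was 7163, 3170 and 6318 on muscle replicates 1, 2 and 3, and that of the 12 muscle fibre markers was 86854, 96564 and 84755. The macrophage sums were 2140, 831 and 1264, and the fibroblast sums 14978, 9073 and 15231. In contrast, the endothelial sums (567, 625 and 720) and the smooth muscle and pericyte sums (2448, 2678 and 2739) were lowest on replicate 1. PYGM and UGP2 were also highest on replicate 2, GYG1 was not, and GBE1 was lowest there. The part of these marker differences in the PGM1 values was not tested. Without muscle replicate 2 the PGM1 difference was -1.39 and still passed.

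**Figure D1:**
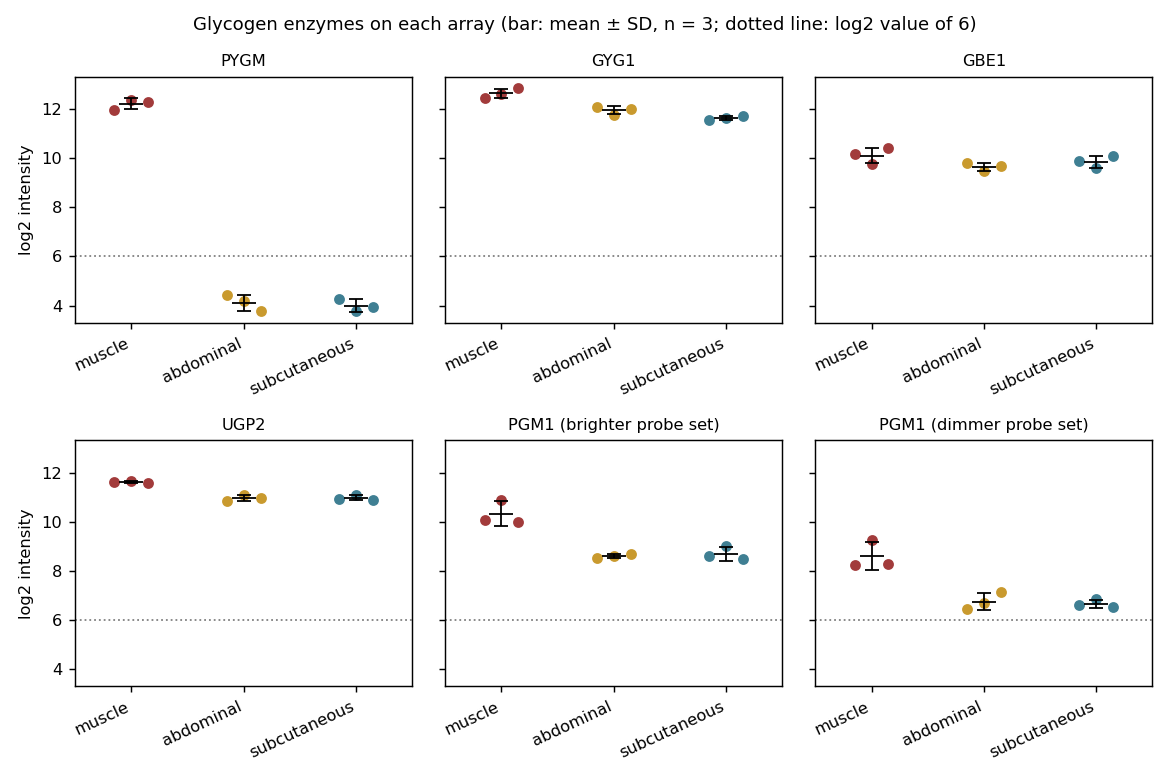
Log2 intensity (vertical axis) of the 6 glycogen enzyme probe sets on each of the 9 arrays, by tissue (horizontal axis); points are arrays, bars are the mean ± SD of 3 arrays and the dotted line marks the near-background level of 6. PYGM drops from 12.22 in muscle to about 4 in both depots, PGM1, GYG1 and UGP2 are lower in fat without overlap, and the GBE1 groups overlap.

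GYG1, the glycogenin that starts a glycogen particle, was bright in all 3 tissues and lower in fat. It read 12.46, 12.62 and 12.85 in muscle, 12.08, 11.78 and 12.02 in abdominal fat and 11.57, 11.63 and 11.72 in subcutaneous fat. The tissues lined up in that order without overlap, though the depots did not pass against each other (limma adjusted p = 0.334). Adipose tissue differed from muscle by -0.84 ± 0.12 (SE; 95% interval -1.11 to -0.57; adjusted p = 0.000252), a 1.79-fold lower intensity.

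UGP2, which makes the UDP-glucose that glycogen synthase consumes, was the tightest of the group. Muscle arrays read 11.63, 11.65 and 11.56, abdominal arrays 10.84, 11.08 and 10.97, and subcutaneous arrays 10.92, 11.09 and 10.90. All muscle arrays were higher than all fat arrays, and the ranges of the depots overlapped. The difference of -0.64 ± 0.10 (SE; 95% interval -0.87 to -0.42; adjusted p = 0.000468) corresponds to a 1.56-fold lower intensity in fat.

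GBE1, the branching enzyme, gave 10.16, 9.78 and 10.40 in muscle, 9.80, 9.49 and 9.68 in abdominal fat and 9.87, 9.62 and 10.08 in subcutaneous fat. These ranges overlap, with muscle replicate 2 inside the range of the fat arrays. The difference of -0.36 ± 0.16 (SE; 95% interval -0.71 to -0.00) did not pass (adjusted p = 0.0849). It passed when each array was centred on its median (-0.48, adjusted p = 0.0263) and without muscle replicate 2 (-0.52, adjusted p = 0.023), and without muscle replicate 3 it was -0.22.

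The gap of PYGM was compared directly with those of the other 4 genes, using the difference between 2 probe sets on the same array, which cancels array scaling. On the log2 scale the change of PYGM minus that of the other gene was -6.48 for PGM1, -7.31 for GYG1, -7.51 for UGP2 and -7.80 for GBE1. In each of the 4 pairs the 3 muscle arrays and the 6 fat arrays gave the smallest p that this design allows (exact permutation test, two-sided, p = 0.0238; Benjamini-Hochberg over 4 pairs, adjusted p = 0.0238). The 4 tests share the same PYGM values, whose gap already far exceeded the other changes. This p was therefore fixed beforehand and adds no support to the sizes. These sizes share the near-background fat values of PYGM and are not exact: with a pseudocount of 16 they were -5.54, -6.35, -6.55 and -6.83 in the same order. With any 1 of the muscle arrays left out the smallest possible p is 0.0714, so no pair can then pass.

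Each depot taken alone against muscle gave the same 4 genes as lower, with the muscle arrays shared between both comparisons. In abdominal fat the differences were -8.09 for PYGM, -1.72 for PGM1, -0.68 for GYG1 and -0.65 for UGP2, with GBE1 at -0.46 (adjusted p = 0.0664). In subcutaneous fat they were -8.22, -1.63, -1.0 and -0.64 in the same order of genes, with GBE1 at -0.26 (adjusted p = 0.275). The adjusted p of the 4 passing genes ranged up to 0.00284, for GYG1 in abdominal fat. The background for these comparisons was 27.1% of named genes lower in abdominal fat and 25.9% lower in subcutaneous fat.

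By overall shape over the 9 arrays, the named genes most like PYGM were ANKRD1, a stress-responsive muscle protein, SLN, the calcium pump regulator sarcolipin, and TNNT3. After each gene was centred on its own mean, their root mean square differences from PYGM were 0.24, 0.36 and 0.37 log2 units among 9154 named genes. The 9 arrays come from 3 tissues, and all 4 genes have fat means near background (4.06 for PYGM, 4.18 for ANKRD1, 5.07 for SLN and 4.59 for TNNT3), so the exact order among them is not read. ANKRD1 fell by 8.09 in fat, SLN by 7.84 and TNNT3 by 7.72.

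The other genes of the pathway were taken from 6 lists with 65 genes, of which 43 had a named probe set. Between adipose tissue and muscle 13 of the 43 rose and 14 fell, and 16 did not pass, with a median difference of 0.01. These shares lie near the background (29.5% lower, 61.4% in either direction), so the count as a whole is no result about the pathway. With centred arrays 12 rose and 16 fell. The lists are described singly for what their members do.

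Among the isozymes of the measured and unmeasured enzymes, 3 of 5 rose in fat and none fell (median 0.51), where 2926 of all 9155 named genes rose. In abdominal fat alone 2 of the 5 rose (1 with centred arrays), and in subcutaneous fat 3. PYGL, the liver form of glycogen phosphorylase, read 5.98, 5.13 and 5.19 in muscle, 7.73, 7.68 and 7.66 in abdominal fat and 6.95, 7.84 and 6.94 in subcutaneous fat. Every fat array was above every muscle array, as was so for 2523 of all 9155 named genes. The difference was 2.04 ± 0.24 (SE; adjusted p = 6.84e-05), from a muscle mean of 5.43 near background, and the dimmer PYGL probe set differed by 2.78 (adjusted p = 3e-05).

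PYGB, the brain form of phosphorylase, was also higher in fat, by a small step. It read 6.57, 6.44 and 6.63 in muscle, 6.93, 6.74 and 7.06 in abdominal fat and 7.27, 7.28 and 7.05 in subcutaneous fat, again without overlap. The difference was 0.51 ± 0.11 (SE; adjusted p = 0.00411). The 3 phosphorylase genes thus went in opposite directions between the tissues, PYGM down and PYGL and PYGB up in fat. Whether they sum to more or less phosphorylase in fat cannot be read from probe sets of different genes.

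**Figure D2:**
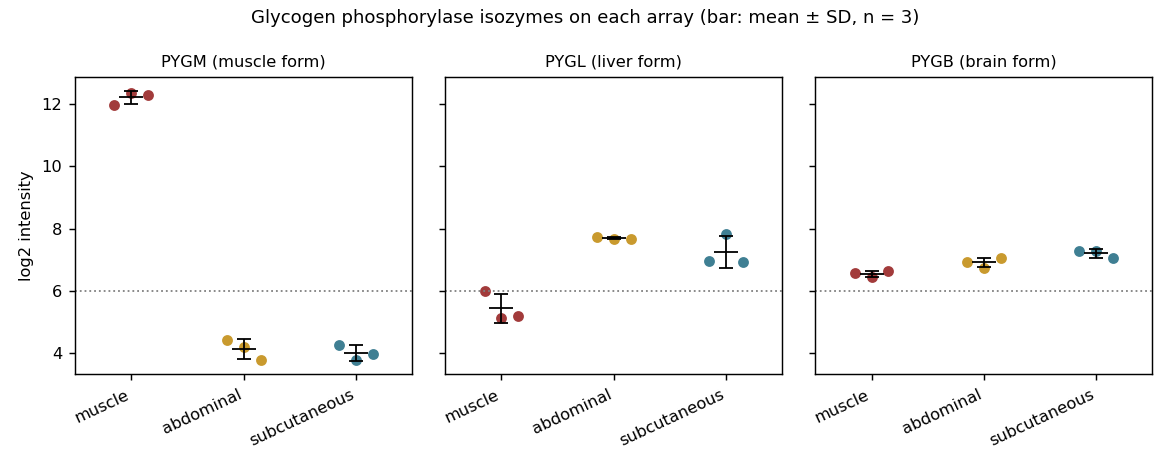
Log2 intensity (vertical axis) of the brightest probe set of each glycogen phosphorylase gene on each array, by tissue (horizontal axis); points are arrays, bars the mean ± SD of 3 arrays, the dotted line the near-background level of 6. PYGM is high only on the muscle arrays, PYGL rises from a mean of 5.43 in muscle to 7.69 and 7.24 in the depots, and PYGB from 6.55 to 6.91 and 7.20.

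PHKG2, the liver and testis form of the catalytic phosphorylase kinase subunit, rose in fat by 0.68 ± 0.11 (SE; adjusted p = 0.000444), with means of 6.04 in muscle, 6.34 in abdominal fat and 7.09 in subcutaneous fat. Taken singly, subcutaneous fat passed against muscle (1.05, adjusted p = 8.33e-05) and abdominal fat did not (0.30, adjusted p = 0.0678). PHKA2, the liver form of the regulatory alpha subunit, was under 6 in every tissue and did not pass (0.27, adjusted p = 0.0978). GYS2, the liver glycogen synthase, was also under 6 in every tissue, with means of 3.76 in muscle, 3.55 in abdominal fat and 4.10 in subcutaneous fat (0.06, adjusted p = 0.924). No difference or lack of one is read from such values. The lysosomal glycogen hydrolase GAA, the 1 measured gene of 5 in the list of debranching and lysosomal proteins, differed by 0.58 and did not pass (adjusted p = 0.0562). Against muscle, GAA passed in subcutaneous fat alone (0.78, adjusted p = 0.0359) and not in abdominal fat (0.39, adjusted p = 0.257). The subcutaneous call was lost with centred arrays (0.65).

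Macrophage, endothelial, smooth muscle and fibroblast markers moved with the same contrast. All 6 measured macrophage markers rose in fat (summed intensity 831 to 2140 in muscle, 4785 to 10387 in fat), and so did 6 of 7 endothelial markers (567 to 720 in muscle, 2913 to 4047 in fat), where VWF did not pass. Of the smooth muscle and pericyte markers 5 of 6 rose (2448 to 2739 in muscle, 7124 to 12770 in fat), and of the fibroblast markers 5 of 6 (9073 to 15231 in muscle, 21998 to 33356 in fat). The 5 measured lymphocyte markers had means under 6 in every tissue. The part of these cells in PYGL, PYGB and the other genes that rose in fat was not tested.

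Protein phosphatase 1 dephosphorylates glycogen synthase and phosphorylase, and glycogen-targeting subunits bring it to the particle. Of 8 measured subunits and inhibitors 6 fell in fat and none rose, with a median difference of -1.22. The background was 29.5% lower. For each of the 6 every muscle array was above every fat array, which 25.8% of all named genes showed in this direction.

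PPP1R1A, an inhibitor of protein phosphatase 1, fell the most. It read 11.95, 12.27 and 12.03 in muscle, 6.77, 5.88 and 6.27 in abdominal fat and 8.13, 5.92 and 6.46 in subcutaneous fat. Subcutaneous replicate 1 was the highest of the fat arrays and far below muscle. The difference was -5.51 ± 0.41 (SE; adjusted p = 3.49e-06). The inhibitor PPP1R2 differed by -1.55 ± 0.24 (adjusted p = 0.000362), and the targeting subunit PPP1R3F by -1.46 ± 0.19 (adjusted p = 0.000131).

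Named after its values were seen, PPP1R3C, the targeting subunit also called PTG, fell on each of its 3 probe sets, with differences of -1.43, -1.52 and -1.61. Its brightest read 11.02, 11.54 and 11.77 in muscle, 10.44, 10.21 and 10.02 in abdominal fat and 9.76, 9.47 and 10.14 in subcutaneous fat. It therefore stayed well above background in both depots. The catalytic subunits PPP1CC (-1.0) and PPP1CB (-0.97) also fell, and PPP1CA (-0.17, adjusted p = 0.348) and the targeting subunit PPP1R3B (-0.27, adjusted p = 0.225) did not pass. PPP1R3B was lower in abdominal fat alone (-0.66, adjusted p = 0.0226) and did not pass in subcutaneous fat (0.12, adjusted p = 0.64). The dimmer PPP1CB probe sets differed by -2.22 and -1.67, the dimmer PPP1CC probe set by -1.71 and the dimmer PPP1R2 probe set by -1.05. The sizes for PPP1CB, PPP1CC and PPP1R2 therefore depend on the probe set.

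The next list held 15 measured kinases, kinase subunits and calmodulins that act on the synthase or phosphorylase kinase, directly or through another kinase. Of these, 5 rose and 4 fell in fat (4 and 6 with centred arrays), a share near the 61.4% of named genes passing in either direction. PRKAR2B, a regulatory subunit of protein kinase A that is typical of adipose tissue, rose by 2.12 ± 0.22 (SE; adjusted p = 2.69e-05). Its muscle mean of 4.66 is near background, so this size is not exact (1.62 with a pseudocount of 16). GSK3B, a kinase that inhibits the synthase, rose by 1.02 ± 0.24 (adjusted p = 0.00569), with 1 muscle array at 6.50 above the lowest fat array at 6.40. Its muscle mean of 5.96 is near background. Taken singly, subcutaneous fat passed against muscle for GSK3B (1.32, adjusted p = 0.00351) and abdominal fat did not (0.72, adjusted p = 0.058). AKT1, the insulin-signalling kinase, rose by 0.78 ± 0.11 (adjusted p = 0.000233). The third GSK3B probe set was dim on every array and did not pass (-0.16, adjusted p = 0.194). Calmodulin CALM3 (-1.50 ± 0.14, adjusted p = 1.52e-05), the protein kinase A catalytic subunit PRKACA (-0.96 ± 0.14, adjusted p = 0.00029) and the casein kinase subunit CSNK2A1 (-0.70 ± 0.16, adjusted p = 0.00404) fell.

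For glucose entry, 2 of 8 genes rose in fat and 3 fell, again near the background of 61.4%. The hexokinase HK1 rose by 1.76 ± 0.29 (SE; adjusted p = 0.000632) and the glucose 6-phosphatase of wide expression, G6PC3, by 1.20 ± 0.14 (adjusted p = 7.55e-05). The insulin-responsive transporter SLC2A4 fell by 1.77 ± 0.25 (adjusted p = 0.000245), from muscle values of 7.93, 8.57 and 9.17 to 6.07 to 7.10 in fat. The glucose 6-phosphate transporter SLC37A4 is also counted among these 3 (-0.73 ± 0.20, adjusted p = 0.0122). Its mean is under 6 in every tissue and it did not pass with its probe sets averaged (-0.43, adjusted p = 0.0508), so no difference is read from it. The transporter SLC2A1 passed narrowly (-0.56 ± 0.21, adjusted p = 0.044). It was lower in abdominal fat (-0.88, adjusted p = 0.0129) and did not pass in subcutaneous fat (-0.24, adjusted p = 0.437). Leaving out any single array other than muscle replicate 2 ended the SLC2A1 call. The adjusted p was then 0.0589 (muscle replicate 1) and 0.116 (muscle replicate 3, where the difference was -0.24). It was 0.068, 0.0772 and 0.0657 without abdominal replicates 1, 2 and 3 in turn, 0.0691, 0.0779 and 0.0622 without the subcutaneous ones, and 0.0647 with a pseudocount of 16.

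UDP-glucose, which UGP2 makes, also feeds other sugars, and 3 of 6 genes of those routes rose in fat while 1 fell, beside the 61.4% of all named genes that passed in either direction. B4GALT1, a galactosyltransferase, rose by 2.07 ± 0.31 (SE; adjusted p = 0.000333), UGCG, which joins glucose to ceramide, by 1.75 ± 0.17 (adjusted p = 2.05e-05) and UGDH, which makes UDP-glucuronate, by 1.07 ± 0.19 (adjusted p = 0.000926). For these 3 genes no muscle array reached the fat arrays, as was so for 2523 of all 9155 named genes. The galactokinase GALK1 fell by 0.56 ± 0.13 (adjusted p = 0.00406), and its other probe set differed by -0.03 (adjusted p = 0.812).

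**Figure D3:**
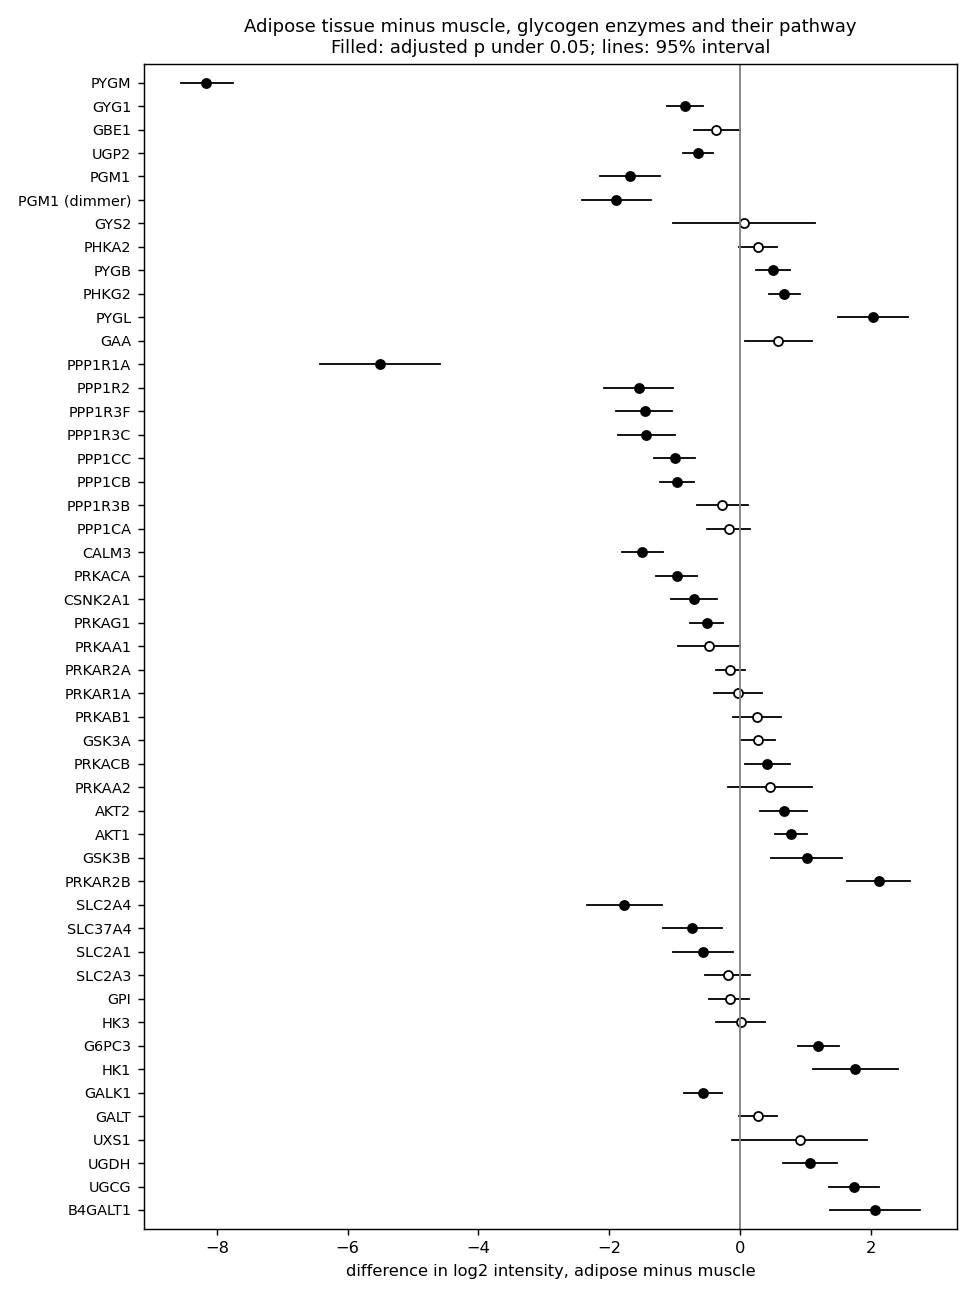
Difference in log2 intensity between adipose tissue and muscle (horizontal axis) for the 6 glycogen enzyme probe sets at the top and the brightest probe set of the 43 other pathway genes below, grouped by list; lines are 95% intervals and filled points passed an adjusted p of 0.05. PYGM (-8.16) and PPP1R1A (-5.51) lie far from the rest, which span -1.89 to 2.12.

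The last comparison asked whether abdominal and subcutaneous fat differed in these genes. None of the 5 glycogen enzymes passed by limma, where 1.5% of named genes passed, and 1 of the 5, GYG1, had an unadjusted p under 0.05, as 18.0% of named genes did. GYG1 was 0.32 ± 0.14 higher in abdominal fat (SE; 95% interval 0.01 to 0.63; adjusted p = 0.334), and its lowest abdominal array, 11.78, lay above its highest subcutaneous array, 11.72. Of all named genes 10.7% were separated in that direction. The intervals were -0.63 to 0.44 for PGM1, -0.61 to 0.21 for GBE1 and -0.27 to 0.25 for UGP2, so a depot difference larger than those bounds lies outside the 95% interval for each gene. The arrays of GYG1 were ordered muscle, abdominal, subcutaneous, without a depot call, and for PGM1 and UGP2 the depot ranges overlapped. PYGM was near background in both depots (0.13, adjusted p = 0.863), and no difference or lack of one is read from it.

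Of the 43 other pathway genes 3 passed between the depots, where 1.5% of named genes did. These were PRKAR2B, higher in abdominal fat, and PHKG2 and GPI, higher in subcutaneous fat. An unadjusted limma p under 0.05 was reached by 12 of the 43, and by 18.0% of named genes. PHKG2 read 6.51, 6.22 and 6.30 in abdominal and 7.09, 7.06 and 7.13 in subcutaneous fat, a difference of -0.75 ± 0.12 (SE; adjusted p = 0.0293). Muscle, at 5.94, 6.04 and 6.15, lay below both depots. The call was lost without abdominal replicate 2 (adjusted p = 0.096) or 3 (0.0942) or subcutaneous replicate 1 (0.0862), 2 (0.0739) or 3 (0.086).

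PRKAR2B read 6.88, 7.80 and 7.53 in abdominal and 6.25, 6.34 and 5.83 in subcutaneous fat, a difference of 1.27 ± 0.25 (SE; adjusted p = 0.0463). The 2 depots did not overlap, as for 10.7% of named genes in that direction, and muscle lay below both at 4.47, 4.50 and 5.00. Leaving out muscle replicate 1 (adjusted p = 0.0703) or 2 (0.055) ended this call. So did leaving out abdominal replicate 2 (0.137) or 3 (0.144), and each subcutaneous array (0.11, 0.0906 and 0.138 for replicates 1 to 3). It was also lost with quantile normalised arrays (0.0524), with the fat arrays fitted alone (0.0641) and with a pseudocount of 16 (0.0586).

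GPI, the isomerase between glucose 6-phosphate and fructose 6-phosphate, read 9.93, 10.04 and 10.44 in abdominal and 11.05, 10.96 and 10.92 in subcutaneous fat, a difference of -0.84 ± 0.16 (SE; adjusted p = 0.0388). Muscle, at 10.55, 10.79 and 10.83, lay between the depots. It no longer passed when muscle replicate 1 (adjusted p = 0.0542), abdominal replicate 1 (0.117) or 2 (0.126), or any subcutaneous array (0.114, 0.0994 and 0.0965 for replicates 1 to 3) was left out, nor with the fat arrays fitted alone (0.0511). Each of these 3 genes kept its direction in every one of these fits. None of the measured adipocyte, macrophage or muscle fibre markers passed between the depots, by limma, with 1, 0 and 2 of them at an unadjusted p under 0.05. Endothelial and smooth muscle markers did not pass either, with 4 of 7 and 2 of 6 at an unadjusted p under 0.05 and median differences of 0.50 and 0.51 towards abdominal fat. The summed endothelial markers did not overlap (3632 to 4047 in abdominal and 2913 to 3122 in subcutaneous fat), and their part in the 3 depot calls was not tested.

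**Figure D4:**
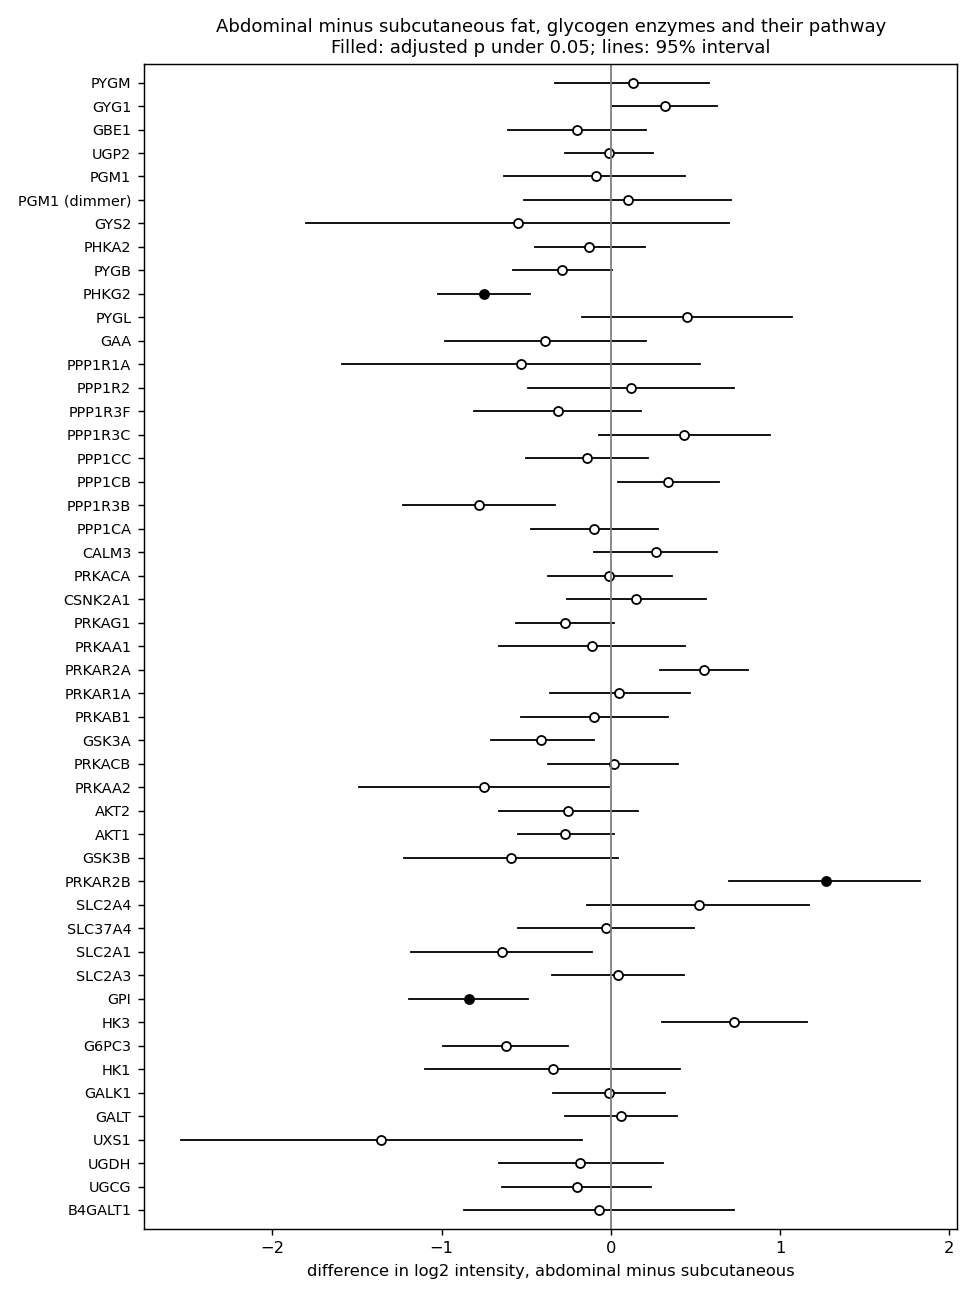
Difference in log2 intensity between abdominal and subcutaneous fat (horizontal axis) for the same probe sets as in the plot of adipose tissue minus muscle; lines are 95% intervals and filled points passed an adjusted p of 0.05. Only PHKG2 (-0.75), PRKAR2B (1.27) and GPI (-0.84) are filled, and the interval of GYG1 (0.01 to 0.63) just clears 0.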

How the data were processed

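The authors deposited 1 intensity per probe set and array for the 9 arrays, on a linear scale (3.06 to 17450.5). RMA is the tool named in the submitters' processing notes; neither version nor options are stated there, and an RNA kit is named for the adipose samples only. Log2 of each value was taken, with no pseudocount, no further normalization and no filter. The 112 control probe sets were left out. Symbols came from the array annotation updated through the RefSeq gene table (13292 probe sets with 1 symbol, 86 with several, 10638 with none), and the brightest probe set over the 9 arrays stood for a gene in counts.

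The mean of each tissue was estimated from all 9 arrays over 24016 probe sets with limma 3.58.1 in R 4.3.3 (6 residual and 3.752 prior degrees of freedom), two-sided, with Benjamini-Hochberg adjustment over all of them and a threshold of 0.05. Exact permutation tests used scipy 1.17.1. The precision is limited by the number of arrays. The glycogen genes and the lists were chosen with earlier results of these data known. Genes named were all glycogen enzymes, up to 3 passing genes in each direction per list by adipose minus muscle, any passing between depots, and the 3 genes most like PYGM; the genes named in describing a list that did not pass or fell outside this rule (PHKA2, GYS2, GAA, PPP1R3C, PPP1R3B, PPP1CA, PPP1CB, PPP1CC), and the markers ACTA1, CKM, MYH7 and VWF, were picked once their values were known. The settings varied were scaling, a dim filter, the prior, array weights, a title-number block, the arrays fitted, a pseudocount, the threshold, probe set averaging and leaving out each array; those for the other pathway genes were added after seeing the data. Data were also simulated with 200 of 24016 probe sets changed. For adipose minus muscle, log2 differences of 0.5, 1 and 2 were called in 15.8%, 72.2% and 96.8% of cases, and between the depots in 6.6%, 59.2% and 92.4%. In the real data 12628 probe sets passed for adipose minus muscle, which makes the adjustment less strict. The simulated shares for that comparison therefore do not carry over to these data.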

Additional observations from a re-analysis of the deposited data

Results flagged for a closer look

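For 3 genes the difference from muscle was not the same in the 2 fat depots, tested as abdominal minus subcutaneous in the limma fit over all probe sets. PHKG2 gave -0.75 (adjusted p = 0.0293), GPI gave -0.84 (adjusted p = 0.0388) and PRKAR2B gave 1.27 (adjusted p = 0.0463). By the same test 1.5% of named genes passed. In each of the 3, the arrays of the depots did not overlap. Of all 9155 named genes, 981 were higher in abdominal fat without overlap and 1641 were lower. Leaving out single arrays ended the call for 5 of the 9 arrays in PHKG2, 6 in GPI and 7 in PRKAR2B.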

How the results depend on the processing

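PYGM, PGM1 (both probe sets), GYG1 and UGP2 stayed lower in fat and past the threshold under every alternative run for adipose tissue, abdominal fat and subcutaneous fat against muscle; with the stricter threshold of 0.01 the count of glycogen enzymes called was again 4. Over leaving out 1 array the difference between adipose tissue and muscle ranged from -8.28 to -8.07 for PYGM (-7.19 with a pseudocount of 16) and from -0.67 to -0.61 for UGP2. For all probe sets 49.8% of calls were higher in fat as deposited and 39.2% with centred arrays.

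Between the depots 314 probe sets passed, 36 at a threshold of 0.01, 1034 with array weights, and 57 to 491 leaving out 1 array. Other pathway genes passing there numbered 3, and 0 at 0.01, 7 with array weights and 0 to 6 leaving out 1 array. Depot differences near 0 changed sign: UGP2 was 0.00 with centred arrays and PGM1 0.00 with its probe sets averaged, and leaving out 1 array gave -0.02 to 0.30 for PYGM, -0.06 to 0.05 for UGP2, -0.20 to 0.07 for PGM1 and -0.09 to 0.26 for its dimmer probe set. The count of PYGM pairs passing was 0 to 4 leaving out 1 array, 0 without a muscle array because no smaller p is possible.

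With the leading title number as a replicate block, 118 probe sets and 0 other pathway genes passed between the depots, and the dimmer PGM1 probe set gave -0.21. The depot calls of PHKG2 (adjusted p = 0.137), PRKAR2B (0.151) and GPI (0.0653) were lost, as was SLC2A1 against muscle (0.0561); no call of a glycogen enzyme changed. Deviations from the tissue mean correlated by 0.04 to 0.36 in the 7 same-numbered pairs and by -0.32 to 0.17 in the 20 other pairs. In 13 of 14 cases an array correlated best with its own number, a hint from the data only. Each same-numbered pair is counted from both of its arrays, so these cases are not independent. The labels do not say what the number marks. With 3 arrays per tissue, small differences such as that of GBE1 are at the limit of what could be called.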
